A study of Homo sapiens with 4 samples.

Results

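The 44 genes described here encode proteins that act in or regulate the licensing, start and fork steps of DNA replication. Among them, 4 encode enzymes or enzyme subunits that supply deoxynucleotides. They were taken by gene symbol from tables that list 58870 genes in each of 4 RNA libraries, and each symbol matched 1 row. The libraries come from BJ cells, a line of human foreskin fibroblasts. In 2 libraries, titled young control, the cells had received the solvent DMSO, and in the other 2, titled aged, the cells were given Dox at 250 nM, a name the labels leave abbreviated. Exposure lasted 24 hours, and the series design then leaves 10 days for senescence, although the samples' treatment protocol can be read in the opposite order. No group carries a genetic change in the labels and all cells are of 1 line, and whether replicates come from separate cultures is not in the labels. All p-values here rest on the spread between these libraries, which may be technical.

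Replication is prepared before S phase, when the origin recognition complex with CDC6 and CDT1 loads the ring-shaped MCM2-7 helicase onto DNA, a step called licensing that geminin blocks once S phase has begun. Origins fire when the kinase CDC7 with its activator DBF4 and the cyclin-dependent kinases recruit CDC45 and the GINS complex to the helicase. At the fork, primase and polymerase alpha make short primers that polymerases epsilon and delta extend on the sliding clamp PCNA, and ribonucleotide reductase, thymidylate synthase and thymidine kinase supply the building blocks. Many of these genes are transcribed under E2F factors, which are repressed through the retinoblastoma pathway in cells that have left the cycle. Senescent fibroblasts are known for a lasting arrest in which such genes are low.

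The libraries held 42744724 and 47798919 counts (control) and 42880652 and 43429396 counts (Dox), of which the 44 genes took 16344 to 21202. All 11 fibroblast markers were detected, of which 3 fell (PDGFRB, PDGFRA and COL3A1, with log2 fold changes of -1.05, -0.88 and -0.56) and 5 rose, by 0.33 to 0.45. Of 7 keratinocyte markers KRT5 and KRT1 were at 0 counts in all libraries, KRT10 had 411 to 525 counts, and the list summed to 10.3 to 12.8 CPM. The T cell marker CD3E was at 0. The 5 endothelial and 5 melanocyte markers summed to 3.60 to 4.76 and 29.04 to 33.6 CPM (counts scaled to a common library size) in a library. Most of these sums came from TEK (3.04 to 4.59 CPM) and MITF (28.7 to 33.4 CPM). The melanocyte markers PMEL, MLANA, TYR and DCT were each at most 0.309 CPM. Of 5 immune markers 2, CD68 and PTPRC, were higher in Dox (sums over the 5 of 6.14 to 6.49 against 26.5 to 28.6). Most of these sums was CD68, at 5.57 to 6.01 CPM in control and 23.9 to 26.1 CPM in Dox. PTPRC was at 0.216 to 0.235 against 1.83 to 2.10 CPM, CD14 did not pass and LYZ had at most 5 counts. The 5 markers of dividing cells (MKI67, TOP2A, CCNB1, CDK1 and AURKB) all fell by edgeR's quasi-likelihood test, with sums of 82.6 and 85.4 for control and 30.8 and 33.6 for Dox. Their part in the results below was not tested, and in bulk RNA fewer dividing cells and less RNA per cell cannot be told apart. The Dox replicates differed from each other more than the control replicates did, with a chi-square per degree of freedom of 60.5 against 2.40.

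Most of the replication genes were lower in Dox. In edgeR's quasi-likelihood fit, with p-values adjusted by Benjamini-Hochberg over 16749 genes and a threshold of 0.05, 23 of the 44 fell, 3 rose (PRIM2, PCNA and TYMS) and 18 did not pass. Over all genes tested, 13.8% fell and 16.5% rose. The median log2 fold change of the 44 genes was -0.57, against -0.002 over all genes tested. Levels are given in CPM after TMM scaling, which corrects for the makeup of each library. Both Dox libraries lay below both control libraries for 35 of the 44 genes (34.5% of all genes) and above them for 4 (34.6% of all genes). Summed over the 44 genes, 442 and 452 CPM in the control libraries compared with 382 and 390 CPM in the Dox libraries. Without the 3 genes that rose, the sums were 381 and 385 CPM against 277 and 288 CPM.

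**Figure D1:**
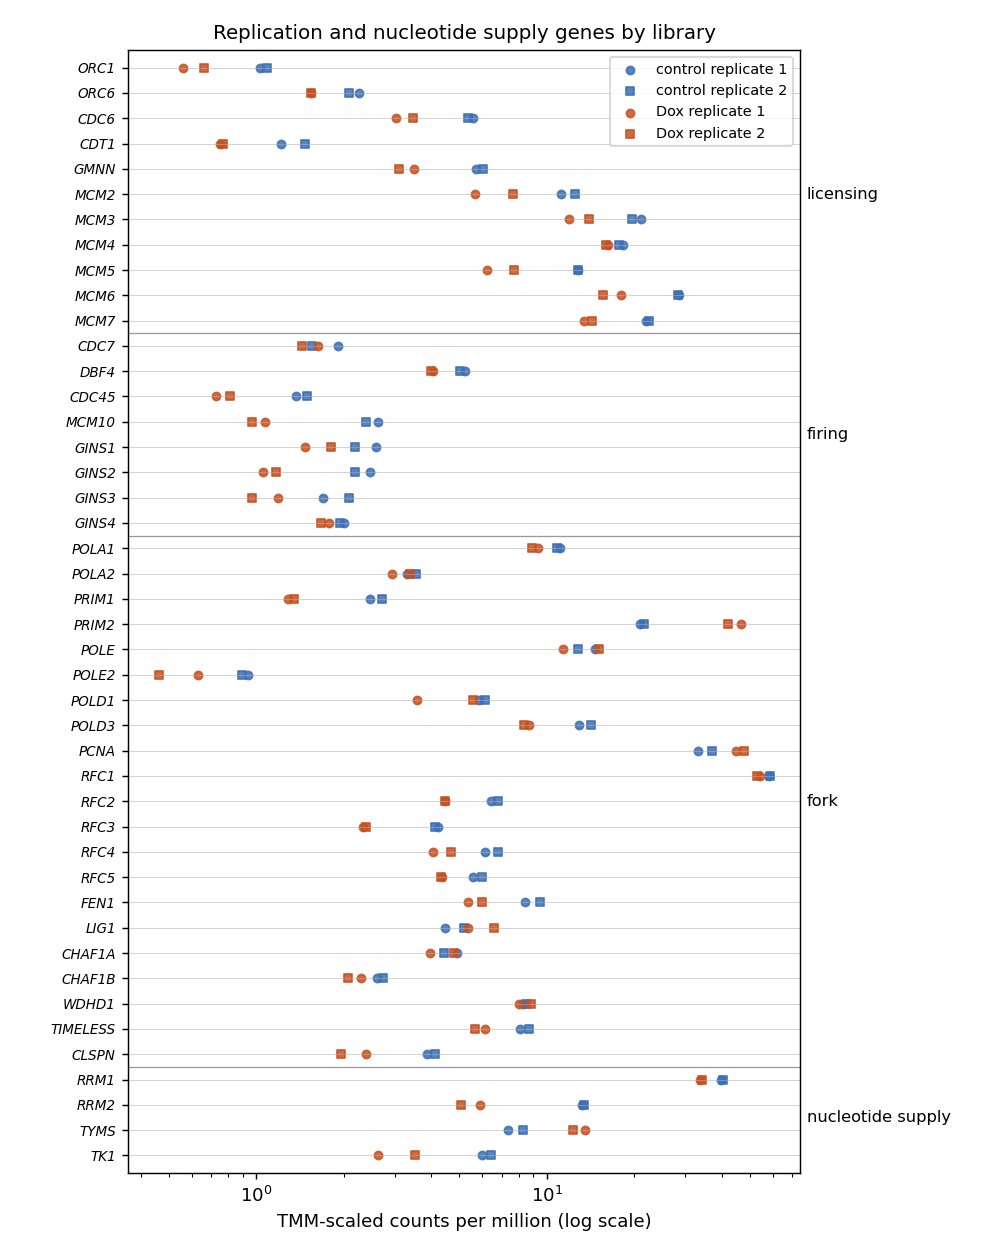
Level of each gene in each library, in TMM-scaled CPM on a log axis, with genes grouped by step (control in blue, Dox in orange, circles for replicate 1 and squares for replicate 2). For 35 of 44 genes both orange points lie left of both blue points, and for PRIM2, PCNA, TYMS and LIG1 they lie to the right.

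Of the 11 licensing genes, 8 fell (13.8% of all genes) and 3 did not pass (ORC1, ORC6 and MCM4). The median log2 fold change of the 11 was -0.76. In all 11, both Dox libraries were below both controls (34.5% of all genes). Among the 6 helicase subunits, MCM6 was at 28.5 and 28.3 CPM in control cells against 18.1 and 15.6 CPM under Dox (-0.76 on the log2 scale, SE 0.10, edgeR adjusted p = 0.00299). MCM5 was at 12.8 and 12.8 CPM against 6.24 and 7.72 CPM (-0.87, SE 0.13, edgeR adjusted p = 0.00432). The groups are well apart for these subunits, and the Dox replicates differ from each other more than the controls do. MCM2, the subunit that also binds histones, was at 11.2 and 12.5 CPM against 5.68 and 7.63 CPM (-0.84, SE 0.16), MCM3 fell by 0.65 (SE 0.11) and MCM7 fell by 0.68 (SE 0.09) on the log2 scale. MCM4 was at 18.3 and 17.7 CPM in control cells against 16.2 and 16.0 CPM under Dox, a log2 fold change of -0.16 (SE 0.09) that did not pass (edgeR adjusted p = 0.199). Its groups did not overlap, but the gap was narrow.

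The loading factors CDC6 and CDT1 and their inhibitor geminin fell together. CDC6, the ATPase that brings the helicase to the origin, was at 5.58 and 5.35 CPM in control cells against 3.04 and 3.46 CPM under Dox (-0.75 on the log2 scale, SE 0.15, edgeR adjusted p = 0.0116). CDT1, its partner in loading, had 51 and 69 control against 32 and 35 Dox counts (-0.83, SE 0.23, edgeR adjusted p = 0.0375). These counts are low, and with control replicate 1 left out CDT1 missed the threshold (edgeR adjusted p = 0.0808), as it did with control replicate 2 left out (0.282), as did CDC6 (0.0655 and 0.0509). GMNN, which encodes geminin, the protein that sequesters CDT1, was at 5.73 and 6.06 CPM against 3.48 and 3.11 CPM (-0.84, SE 0.14, edgeR adjusted p = 0.00727). Counts are not scaled by length, so the ratio of CDT1 to GMNN counts is read only between libraries, and it was 0.213 and 0.243 for control and 0.215 and 0.248 for Dox. ORC1, the origin recognition subunit whose level varies over the cycle, had 43 and 51 counts against 24 and 30 (-0.79, SE 0.24, edgeR adjusted p = 0.0534), and ORC6 had 94 and 98 against 66 and 70 (-0.49, SE 0.18, edgeR adjusted p = 0.0802). Neither passed, although the groups did not overlap.

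Of the 8 firing genes, 4 fell (13.8% of all genes) and 4 did not pass. The median log2 fold change of the 8 was -0.68, and all 8 were negative (8417 of all 16749 genes tested). MCM10, which helps to activate the helicase, was at 2.64 and 2.39 CPM in control cells against 1.08 and 0.97 CPM under Dox (-1.29 on the log2 scale, SE 0.19, edgeR adjusted p = 0.00432). The Dox level was well under the control level in each library. No other of the 44 genes had a lower fold change, with RRM2 at nearly the same value (-1.29, SE 0.12). CDC45, the helicase cofactor, had 57 and 70 counts against 31 and 37 (-0.89, SE 0.22, edgeR adjusted p = 0.0257). GINS2 was at 2.47 and 2.20 CPM against 1.05 and 1.17 CPM (-1.07, SE 0.19, edgeR adjusted p = 0.00879), and GINS3 fell by 0.81 (SE 0.22). GINS1 (-0.54, SE 0.20) and GINS4 (-0.20, SE 0.17), which encode the other subunits of the same 4-part complex, did not pass. The kinase gene CDC7 had 80 and 73 control against 70 and 65 Dox counts (-0.18, SE 0.21, edgeR adjusted p = 0.553), with overlapping groups in CPM, and its activator DBF4 had a log2 fold change of -0.34 (SE 0.13, edgeR adjusted p = 0.0992). With control replicate 1 left out CDC45 missed the threshold (edgeR adjusted p = 0.0797), as it did with control replicate 2 left out (0.168), and GINS3 without control replicate 2 (0.236). Without control replicate 2, 2 firing genes fell.

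Of the 21 fork genes, 8 fell (13.8% of all genes), 2 rose (16.5% of all genes) and 11 did not pass. The median log2 fold change of the 21 was -0.39. The count of rises is not read as a result about the step. Of the 4 genes of polymerase alpha and primase, 1 fell, 1 rose and 2 did not pass. PRIM1, the catalytic primase subunit, was at 2.47 and 2.71 CPM in control cells against 1.29 and 1.34 CPM under Dox (-0.98 on the log2 scale, SE 0.18, edgeR adjusted p = 0.00932). PRIM2, the regulatory primase subunit, was at 21.0 and 21.6 CPM against 46.7 and 41.9 CPM (1.06, SE 0.09, edgeR adjusted p = 0.000596). One subunit of the primase pair was thus about as far below its control level as the other was above it. POLA1, the polymerase subunit (-0.27, SE 0.10), and POLA2, its accessory subunit (-0.12, SE 0.16), did not pass.

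Of the polymerase epsilon and delta genes, POLD3 fell and POLE, POLE2 and POLD1 did not pass. POLE, the leading-strand polymerase, was at 14.6 and 12.8 CPM in control cells against 11.4 and 15.1 CPM under Dox (log2 fold change by edgeR -0.05, SE 0.15), so the Dox libraries lay on either side of the controls. POLD1, the catalytic subunit of polymerase delta, was at 5.85 and 6.14 CPM against 3.58 and 5.58 CPM (-0.39, SE 0.22, edgeR adjusted p = 0.223). Both depended on which Dox library was used: with Dox replicate 1 alone the log2 fold changes were -0.75 for POLD1 and -0.27 for POLE (edgeR adjusted p = 4.51e-07 and 0.00279), and with Dox replicate 2 alone they were -0.12 and 0.13 (0.447 and 0.150). In such fits the lone Dox library is assumed to vary as little as the control pair, so these p-values do not carry the spread between the Dox replicates. POLD3, an accessory subunit of polymerase delta, was at 12.9 and 14.2 CPM against 8.72 and 8.33 CPM and fell by 0.67 (SE 0.10, edgeR adjusted p = 0.00521). POLE2, an accessory subunit of polymerase epsilon with 39 and 42 control and 27 and 21 Dox counts, did not pass (-0.74, SE 0.27, edgeR adjusted p = 0.0874).

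The clamp gene rose, and 3 of the 5 genes of its loader fell. PCNA was at 33.1 and 37.1 CPM in control cells against 44.99 and 47.7 CPM under Dox (0.40 on the log2 scale, SE 0.09, edgeR adjusted p = 0.0176). With control replicate 1 left out it missed the threshold (0.31, edgeR adjusted p = 0.297), as it did with control replicate 2 left out (0.48, 0.0945). Of the 5 clamp loader genes, RFC3 fell by 0.82 (SE 0.15), RFC2 fell by 0.56 (SE 0.12) and RFC4 fell by 0.57 (SE 0.14), while RFC5 (-0.41, SE 0.13) and RFC1, the large subunit (-0.13, SE 0.07), did not pass. RFC3 was at 4.22 and 4.14 CPM in control cells against 2.34 and 2.38 CPM under Dox, with each pair of replicates close together. With control replicate 1 left out RFC2 and RFC4 did not pass (edgeR adjusted p = 0.104 and 0.0880), nor did they with control replicate 2 left out (0.190 and 0.239).

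Enzymes that finish the lagging strand differed from each other. FEN1, the flap nuclease that trims Okazaki fragments, was at 8.39 and 9.45 CPM in control cells against 5.38 and 5.97 CPM under Dox (-0.65 on the log2 scale, SE 0.13, edgeR adjusted p = 0.0119). LIG1, the ligase that seals them, was at 4.46 and 5.20 CPM against 5.38 and 6.59 CPM (0.31, SE 0.16), which did not pass (edgeR adjusted p = 0.197). With Dox replicate 2 alone against the controls its log2 fold change was 0.43 (edgeR adjusted p = 0.00174) and with Dox replicate 1 alone 0.15 (0.351), under the same assumption on the lone library. The chromatin assembly factor genes CHAF1A (-0.09, SE 0.16) and CHAF1B (-0.29, SE 0.16) and the fork scaffold WDHD1 (0.01, SE 0.11) did not pass. TIMELESS, a fork protection gene, fell by 0.51 (SE 0.12, edgeR adjusted p = 0.0218), and CLSPN, which encodes the checkpoint mediator claspin, was at 3.86 and 4.12 CPM against 2.39 and 1.96 CPM (-0.88, SE 0.17, edgeR adjusted p = 0.0113). Leaving out control replicate 2 removed 7 of the 8 fork genes that fell and left RFC3, and leaving out control replicate 1 left 5.

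All 4 nucleotide supply genes passed, of which 3 fell (13.8% of all genes) and 1 rose (16.5% of all genes). RRM2, the ribonucleotide reductase subunit made in S phase, was at 13.3 and 13.5 CPM in control cells against 5.89 and 5.07 CPM under Dox (-1.29 on the log2 scale, SE 0.12, edgeR adjusted p = 0.00076). RRM1, the large subunit of the same enzyme, was at 39.9 and 40.3 CPM against 33.7 and 34.3 CPM (-0.24, SE 0.07, edgeR adjusted p = 0.0491), a small difference that passed here but not with the replicate number as a block (edgeR adjusted p = 0.0783), with DESeq2's Wald test (adjusted p = 0.139) and without control replicate 1 (0.400) or control replicate 2 (0.457). TK1, the thymidine kinase of the salvage route, was at 5.99 and 6.42 CPM against 2.62 and 3.53 CPM (-1.01, SE 0.18, edgeR adjusted p = 0.00837). TYMS, the thymidylate synthase of the de novo route, was at 7.36 and 8.25 CPM against 13.6 and 12.3 CPM (0.73, SE 0.11, edgeR adjusted p = 0.00506). The synthase and the kinase that make the same product by different routes thus changed in opposite directions, with no overlap between groups in either.

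**Figure D2:**
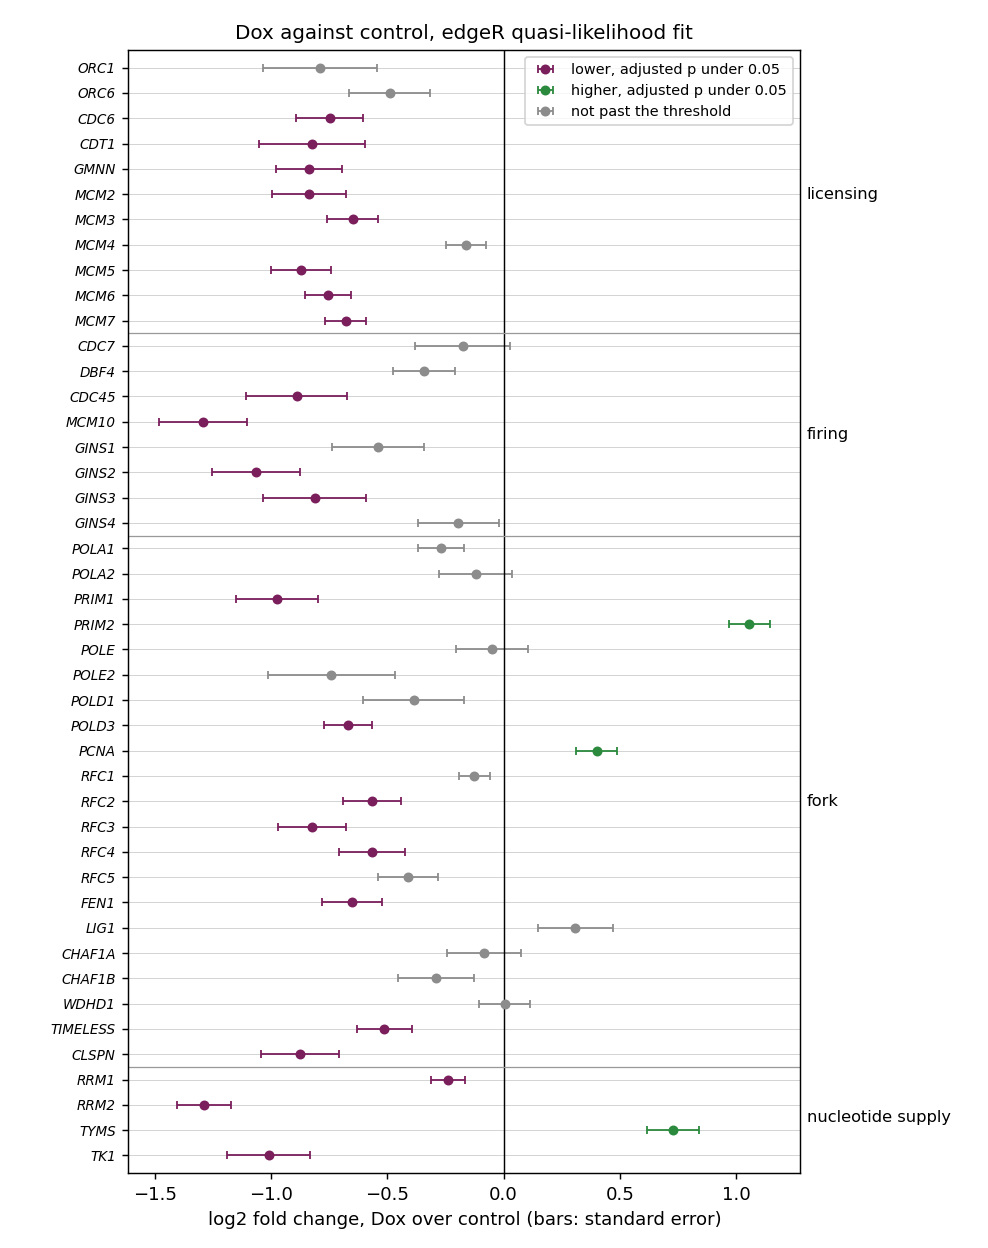
Log2 fold change of Dox over control for each gene with its standard error from edgeR's quasi-likelihood fit on 2 libraries per group, grouped by step and coloured by call. In the licensing and firing steps all 19 points lie left of 0, the lowest being MCM10 at -1.29, and PRIM2 at 1.06 is the highest.

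The 3 genes that rose were checked against other genes that could share their reads, since no source used here states whether counting used strand. TYMS (chromosome 18, 657604 to 673578 in GRCh38, plus strand, GENCODE 29) shares 967 exonic bases, 39.1% of its exons, with ENOSF1 on the opposite strand. ENOSF1 had 655 and 702 control against 670 and 652 Dox counts (log2 fold change by edgeR -0.03, SE 0.09), which is nearly level. The low-count antisense gene TYMSOS shares 183 bases and had 6 and 9 counts against 25 and 20. PRIM2 (chromosome 6, 57314805 to 57646849, plus strand) has near-identical pseudogene copies, ABBA01000935.2 (98.8% identity over 838 bases) and AC244258.1 (96.2% over 1388 bases). These copies had at most 6.10 counts in any library, against 876 and 1011 control and 1997 and 1901 Dox counts for PRIM2, and the split of reads between copies is as the authors' estimates gave it. PCNA (chromosome 20, 5114953 to 5126626, minus strand) had neither an exonic overlap nor a copy of at least 95% identity over 500 bases in GENCODE 29. Among the genes that fell, PRIM1 shares 132 exonic bases with HSD17B6 on the opposite strand, which also fell (604 and 752 against 246 and 269 counts), and on its own strand shares 362 bases with AC117378.1 (0 to 7.71 counts) and 33 bases with NACA (10053 to 13536 counts). RRM2 shares 1077 exonic bases on its own strand with the annotated gene AC007240.1, which was not among the genes with deposited counts. POLA2, which did not pass, shares 2012 bases with AP000944.2 on its own strand, so these values are less certain. Further members also share exonic bases with other genes, and not all are named here. Among those that fell, MCM7 shares 392 bases with AP4M1 and RFC4 shares 21 with EIF4A2, both on the opposite strand. FEN1 shares 166 bases with TMEM258 on the opposite strand and 49 with FADS2 on its own strand. The part of shared reads in these differences was not tested.

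Promoter windows of RefSeq (GRCh38.p14, from 250 bases before to 50 after a gene start) were available for 40 of the 44 genes and were searched on both strands for words bound by cell cycle factors. The E2F words TTTCCCGC, TTTCGCGC, TTTGCCGC and TTTGGCGC, with overlapping matches on opposite strands counted separately, were found for 20 of 40 genes (50%) and for 3.99% of all 27305 genes with a window. Matches were spread over the calls: 11 of 21 genes that fell, 2 of 3 that rose (TYMS and PCNA) and 7 of 16 that did not pass held a word. The CCAAT box, CCAAT, was found for 23 of 40 genes (39.7% of all genes), and the cell cycle homology words TTTGAA and TTCGAA for 3 of 40 (19.5% of all genes). A match is a run of letters and not a bound site. The windows below show 4 genes that fell and the 3 that rose, 5′ to 3′ on each gene's strand with E2F words in capitals. They lie at chr2:135876394-135876693 (MCM6, minus strand), chr3:127598161-127598460 (MCM2, plus), chr17:40287629-40287928 (CDC6, plus), chr16:85688905-85689204 (GINS2, minus), chr18:657403-657702 (TYMS, plus), chr20:5126573-5126872 (PCNA, minus) and chr6:57317380-57317679 (PRIM2, plus).
MCM6: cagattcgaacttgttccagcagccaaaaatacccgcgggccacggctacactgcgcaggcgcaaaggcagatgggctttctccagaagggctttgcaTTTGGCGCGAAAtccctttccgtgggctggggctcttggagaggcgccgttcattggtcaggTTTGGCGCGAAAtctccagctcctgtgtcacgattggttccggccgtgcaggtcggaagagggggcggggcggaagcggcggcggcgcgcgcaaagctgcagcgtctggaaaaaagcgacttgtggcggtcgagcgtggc
MCM2: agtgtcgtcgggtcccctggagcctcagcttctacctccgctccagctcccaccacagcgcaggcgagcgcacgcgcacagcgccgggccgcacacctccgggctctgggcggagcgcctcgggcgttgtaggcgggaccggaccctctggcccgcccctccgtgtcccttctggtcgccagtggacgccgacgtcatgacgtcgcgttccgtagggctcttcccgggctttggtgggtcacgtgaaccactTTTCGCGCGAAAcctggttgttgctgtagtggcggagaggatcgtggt
CDC6: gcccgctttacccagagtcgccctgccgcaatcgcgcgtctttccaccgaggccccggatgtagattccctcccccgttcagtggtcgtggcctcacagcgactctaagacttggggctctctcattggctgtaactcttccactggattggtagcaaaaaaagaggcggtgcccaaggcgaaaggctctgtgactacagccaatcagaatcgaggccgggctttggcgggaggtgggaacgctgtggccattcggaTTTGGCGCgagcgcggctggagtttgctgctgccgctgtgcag
GINS2: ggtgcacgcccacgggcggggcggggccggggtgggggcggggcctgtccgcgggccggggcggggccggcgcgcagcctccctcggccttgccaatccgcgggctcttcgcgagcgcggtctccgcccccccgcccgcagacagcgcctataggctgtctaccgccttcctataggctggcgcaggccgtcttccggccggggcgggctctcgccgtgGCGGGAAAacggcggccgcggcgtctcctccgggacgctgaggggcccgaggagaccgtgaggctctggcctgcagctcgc
TYMS: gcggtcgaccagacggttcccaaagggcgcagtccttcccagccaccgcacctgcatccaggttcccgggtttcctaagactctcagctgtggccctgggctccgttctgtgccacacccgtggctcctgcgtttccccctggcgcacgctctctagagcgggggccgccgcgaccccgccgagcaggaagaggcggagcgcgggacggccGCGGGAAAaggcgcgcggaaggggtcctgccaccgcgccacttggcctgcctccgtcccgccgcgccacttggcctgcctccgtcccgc
PCNA: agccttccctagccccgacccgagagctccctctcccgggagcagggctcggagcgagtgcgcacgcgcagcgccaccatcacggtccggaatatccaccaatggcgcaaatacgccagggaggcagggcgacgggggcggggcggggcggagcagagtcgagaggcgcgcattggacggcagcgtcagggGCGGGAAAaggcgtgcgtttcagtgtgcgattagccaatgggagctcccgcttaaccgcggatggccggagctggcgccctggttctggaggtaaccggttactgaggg
PRIM2: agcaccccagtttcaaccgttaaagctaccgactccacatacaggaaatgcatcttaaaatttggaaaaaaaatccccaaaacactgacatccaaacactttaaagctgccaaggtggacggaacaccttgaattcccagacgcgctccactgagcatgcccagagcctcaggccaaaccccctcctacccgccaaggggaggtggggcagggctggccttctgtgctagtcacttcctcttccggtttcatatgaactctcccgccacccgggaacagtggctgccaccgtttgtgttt

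In these windows MCM6 held its words as 2 overlapping pairs before the gene start, whereas MCM2 and CDC6 held theirs just after it. TYMS and PCNA each held 1 word on the minus strand of the gene, as did GINS2, so the presence of a word did not separate genes that rose from genes that fell. PRIM2 had none in either of its 2 windows. RRM2, MCM10 and TK1, which had the lowest fold changes apart from GINS2, had none of these words in their windows, but each had at least 1 CCAAT box.

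Levels were ranked between genes only within a library and per transcript length, in the authors' deposited TPM, which is scaled by transcript length. Among the helicase subunits MCM7 had the highest TPM in both control libraries (2.93 and 3.19) and MCM2 the lowest in all 4 (0.97 and 1.14 in the control, 0.43 and 0.95 in Dox). MCM4 had rank 4 in both controls and ranks 1 and 3 in Dox replicates 1 and 2. Its deposited length, which enters TPM, was 2154 bases in Dox replicate 1 and 3002 to 3185 bases in the other libraries. The highest subunit exceeded the lowest by 3.02 and 2.80 times in the control and 4.74 and 3.16 times in the Dox libraries. On counts the same range overlapped between groups (2.53 and 2.26 against 3.18 and 2.10 times). In the clamp loader, RFC1 was highest and RFC3 lowest in all 4 libraries, in the order RFC1, RFC4, RFC2, RFC5, RFC3, and the gap between them was 8.23 and 8.45 times in the control and 14.2 and 12.7 times in Dox. The 4 GINS subunits lay between 0.20 and 0.30 TPM in the control, too close for an order that held in both replicates.

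**Figure D3:**
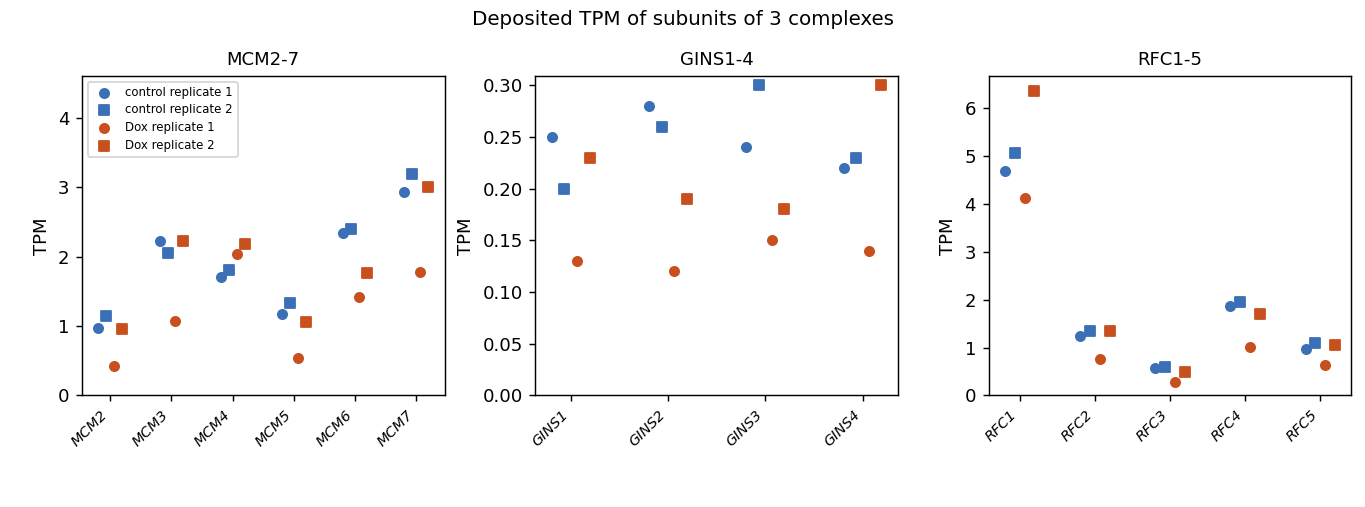
Deposited TPM of the subunits of the MCM2-7 helicase, the GINS complex and the RFC clamp loader in each library on linear axes starting at 0 (control in blue, Dox in orange, circles for replicate 1 and squares for replicate 2). RFC1 stands above the other 4 loader subunits in all 4 libraries, and MCM7 is highest among helicase subunits except in Dox replicate 1, where MCM4 is.

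Ratios within a pair of partners do not depend on library scaling. RRM2 over RRM1 was 0.360 and 0.409 for control and 0.200 and 0.157 for Dox, on TPM. PRIM2 over PRIM1 was 5.83 and 4.70 against 23.5 and 19.5. For both ratios the groups were apart, but with 2 libraries in each group the two-sided exact permutation test cannot go below p = 0.333, which both reached (adjusted p = 0.6 over 9 ratios). POLA2 over POLA1 (0.574 ± 0.0696 against 0.739 ± 0.156, SD, n = 2 each) reached the same exact p. Its groups were barely apart on TPM (nearest values 0.623 for control and 0.629 for Dox). On counts they overlapped (0.297 and 0.329 against 0.314 and 0.382). DBF4 over CDC7 (3.67 ± 0.0864 against 3.49 ± 0.790, SD, n = 2 each), CDT1 over GMNN (0.0888 ± 0.00981 against 0.0830 ± 0.00739) and POLE2 over POLE (0.194 ± 0.0604 against 0.217 ± 0.177) overlapped between groups on TPM. The range of the GINS subunits also overlapped on TPM, but not on counts (1.52 and 1.13 for control against 1.69 and 1.86 for Dox). On counts POLE2 over POLE did not overlap and was lower in Dox (0.0638 and 0.0700 against 0.0556 and 0.0307), so its direction turned with the unit, and on TPM it also turned with the Dox library left out (log2 -1.08 without replicate 1 and 0.82 without replicate 2).

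The deposited transcript length of a gene is weighted by the share of each isoform, so it gives a readout of isoform use apart from the counts. In 11 of the 44 genes both Dox libraries had a shorter length than both controls (17.2% of all genes tested), and in 3 a longer one (13.5%). MCM10 was at 3375 and 4404 bases in the control and 3180 and 2701 bases in the Dox libraries, and WDHD1 at 4731 and 5284 against 4085 and 4482 bases. CDC7 was at 3215 bases in both controls and at 2835 and 2976 bases in Dox. TYMS was slightly longer in Dox, at 1270 and 1334 bases against 1249 and 1267. The MCM10 values rest on 44 to 112 counts a library and those of CDC7 on 65 to 80. In MCM10, WDHD1 and TYMS the control replicates differ from each other by more than the groups' nearest values do. Only the order of the groups is therefore described here.

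The spread between the Dox replicates moved with base composition. Across the 44 genes, the log2 ratio of Dox replicate 2 to Dox replicate 1 correlated with the mean GC content of their transcripts (Spearman rho of 0.560). For the control pair rho was 0.233, as a description over genes that share the same libraries. Over 16729 genes with a GC value rho was 0.579 for the Dox pair and 0.016 for the control pair. The Dox trend is thus not particular to the 44 genes. Among them, the Dox ratio ran from -0.45 for POLE2, with the lowest GC content (38.4%), to 0.64 for POLD1 (64.6%). POLE (0.41), MCM2 (0.42) and TK1 (0.43) were also well above 0, so their Dox means rest on replicates that disagree. The fold change of Dox over control had a rho of only -0.094 with GC content. With an offset for the GC trend of each library, all 26 calls held and 10 further genes fell (ORC1, ORC6, MCM4, DBF4, GINS1, POLA1, POLE2, POLD1, RFC1 and RFC5). This gave 33 falls where 27.9% of all genes fell and 19.2% rose, against 13.8% and 16.5% without the offset. The offset lowered the log2 fold change of each of the 44 genes, from 0.40 to 0.34 for PCNA and from -0.13 to -0.23 for RFC1. The part of this shift in the further falls was not tested.

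**Figure D4:**
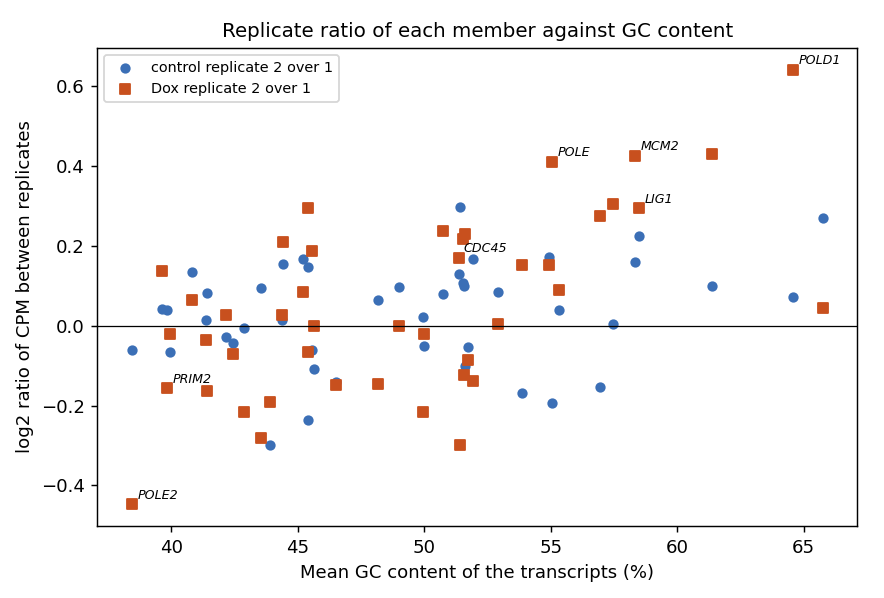
Log2 ratio of CPM between replicates for each of the 44 genes against the mean GC content of its transcripts, for the Dox pair (orange squares) and the control pair (blue circles). The Dox ratios rise from left to right (rho of 0.560), from POLE2 at -0.45 to POLD1 at 0.64.

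A further list of 57 pathway genes that are not among the 44 held 18 that fell, 6 that rose and 33 that did not pass. Their median log2 fold change was -0.20, and over all genes tested 13.8% fell and 16.5% rose. The other origin recognition subunits ORC2, ORC3, ORC4 and ORC5 did not pass (-0.04, 0.27, -0.04 and -0.04), while MCMBP, which binds the helicase, fell by 0.57 (SE 0.07, edgeR adjusted p = 0.00203). Among firing genes, the S phase cyclin CCNA2 was lower under Dox (3.01 ± 0.324 CPM, against 10.3 ± 0.161 CPM, SD over 2 libraries; log2 fold change -1.77, SE 0.13) and cyclin E2 (CCNE2) fell by 0.97 (SE 0.18), but cyclin E1 (CCNE1) rose by 0.62 (SE 0.17, edgeR adjusted p = 0.0383). CCNE1 did not pass with either control library left out (edgeR adjusted p = 0.121 and 0.281). At the fork, TOP2A fell by 1.40 (SE 0.08) and the histone chaperone NASP fell by 0.53 (SE 0.08), whereas TOP1, the topoisomerase that relaxes DNA ahead of the fork, rose by 0.87 (SE 0.11, edgeR adjusted p = 0.00245) and POLE4 rose by 0.32 (SE 0.09). The polymerase delta subunits POLD2 (-0.13, SE 0.12) and POLD4 (-0.23, SE 0.09) did not pass.

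Of 18 other nucleotide supply genes, 4 fell, 3 rose and 11 did not pass, with a median log2 fold change of -0.08. Over all genes tested 13.8% fell and 16.5% rose, so these counts are not read as a result about the list. RRM2B, the ribonucleotide reductase subunit that p53 induces and that works outside S phase, was at 98.5 and 99.2 CPM in control cells against 150 and 136 CPM under Dox (0.53 on the log2 scale, SE 0.08, edgeR adjusted p = 0.00466). The nucleoside diphosphate kinase NME1 rose by 0.30 (SE 0.07), and thymidylate kinase (DTYMK, -0.58, SE 0.16) and the nucleoside transporter SLC29A1 (-0.46, SE 0.11) fell. The mitochondrial thymidine kinase TK2 (-0.16, SE 0.07) and the second CDC7 activator DBF4B (-0.33, SE 0.20) did not pass. The calls of RRM2B, NME1, DTYMK, SLC29A1, POLE4 and NASP were each lost with control replicate 1 left out and with control replicate 2 left out, and that of CCNE2 with control replicate 2 left out.

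The count of genes that fell moved with the library left out, the unit, the fold threshold and the GC offsets. Where 1 library is left out its group has 1 library, the spread is estimated from the other group alone, and the calls are not a like-for-like check of stability. The count was 16 without control replicate 1 and 11 without control replicate 2, where 6.23% and 5.73% of all genes fell (2 members rose in each, where 8.62% and 7.83% of all genes did), and 29 and 31 without Dox replicate 1 or 2, where 26.7% and 29.1% did. Of the 26 calls, 13 were made in each of these 4 fits, namely GMNN, MCM2, MCM3, MCM5, MCM6, MCM7, MCM10, GINS2, RFC3, RRM2 and TK1, which fell, and PRIM2 and TYMS, which rose. With DESeq2's size factors 22 fell (13.7% of all genes), with its Wald test 19 fell and 3 rose (11% and 13.7%), with no filter on low counts 26 fell (9.85%) and among protein-coding genes 25 fell (17.4%). A fold threshold of 1.5 in edgeR's glmTreat left RRM2 and MCM10 lower and PRIM2 higher (2.87% and 4.7% of all genes). With limma on log2(TPM + 1) and on log2(TPM + 0.1) no member passed (1.18% of all genes fell under each, and 3.56% and 3.8% rose), where 3 and 2 had an unadjusted p under 0.05. On TPM the Dox replicates themselves stood apart, with a median log2 ratio of replicate 2 to replicate 1 of 0.75 over the members and 0.70 over all genes, where the ratios in CPM were 0.026 and 0.0064. The small RNAs RN7SL1 and RN7SL2 took 14.7% and 12.6% of the Dox and 17.6% and 17.4% of the control counts, and their part in that gap was not tested. In all 15 fits run, 32 of the 44 fold changes were negative and 4 (PRIM2, PCNA, TYMS and LIG1) were positive. These fits draw on the same 4 libraries, so their signs are not independent, and the same share over all genes is not given here. In the quasi-likelihood fit on all 4 libraries, 39 of the 44 and 8417 of all 16749 genes tested were negative.

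**Figure D5:**
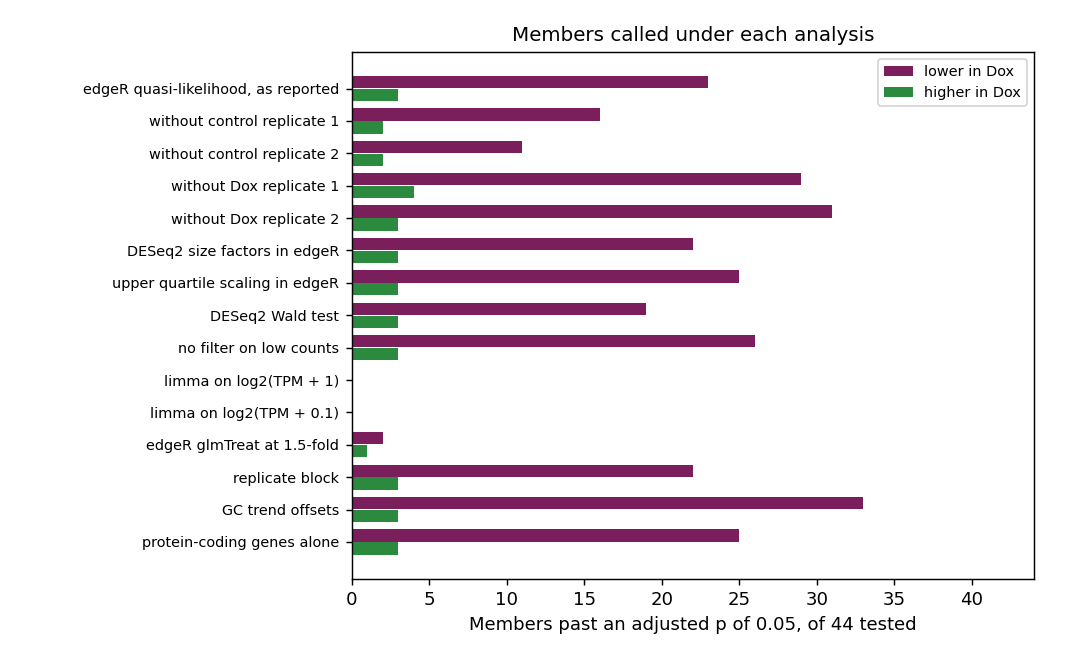
Number of the 44 genes past an adjusted p of 0.05 in each analysis, lower in Dox (purple) and higher in Dox (green). The bars run from 0 on the TPM scales to 33 lower genes with GC trend offsets.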

How the data were processed

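RNA from 4 libraries, 2 control and 2 Dox, was grouped by the sample titles. The submitters' processing notes name the build hg38 with RSEM, STAR, cutadapt and Picard, and no source used here gives their versions, the annotation or strand settings. Per the file headers, the deposited expected counts are RSEM's estimated reads per gene, the deposited TPM values are scaled by effective length to one total per library, and the deposited FPKM values were not used. The deposited length columns are RSEM's isoform-weighted lengths.

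Expected counts were rounded, kept by edgeR's filterByExpr (minimum count 10, minimum total 15), TMM-scaled and fitted by edgeR's quasi-likelihood model with group as the only term, on all 16749 genes that passed. All 44 members passed. The standard error is the log2 fold change divided by the square root of F. The test was tested on simulated data. Gene identifiers matched GENCODE 29 (GRCh38) for 99.5% of genes. Copies were sought with BLAST at 95% identity over 500 bases. GC offsets used a spline with 4 degrees of freedom per library. Software was edgeR 4.0.16, DESeq2 1.42.0 and limma 3.58.1 under R 4.3.3, with Python 3.11.15. The members, the gene lists and the alternatives were chosen with earlier results of these data known. All 44 members are named, with the 2 smallest adjusted p-values per step and direction among 57 other pathway genes. Also named are 5 fixed relatives (DBF4B, RRM2B, POLD2, POLD4 and TK2) and some of the genes that overlap or copy a member. ORC2 to ORC5 were named after their values were seen.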

Additional observations from a re-analysis of the deposited data

How the results depend on the processing

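None of the 26 members that passed changed direction in any alternative run, and 8 members that did not pass changed sign in at least 1 (MCM4, CDC7, DBF4, POLA2, POLE, RFC1, CHAF1A and WDHD1). Under limma on log2(TPM + 1) and log2(TPM + 0.1) the counts of members were 0 lower and 0 higher in each of the steps, all genes called were 596 and 637 higher and 198 and 198 lower, and the members' median was -0.080 and -0.29, where the median of all genes was 0.06 and 0.13. Without a filter on low counts the median of all genes was 0.12. With glmTreat at 1.5-fold, 787 genes were higher and 480 lower, of the members 1 and 2, with licensing 0, firing 1, fork 0 and nucleotide supply 1 lower, and fork 1 and nucleotide supply 0 higher. DESeq2's Wald test gave 2 firing genes lower. GC trend offsets gave 4669 genes lower and 13 fork members lower. Leaving out each library in turn gave 1368 to 4654 genes higher and 1000 to 5017 lower, 11 to 31 members lower, 2 to 6 firing and 1 to 13 fork members lower, 1 to 3 fork members higher, and medians of the members from -0.65 to -0.56. The cause of these changes was not tested. Depth limits ORC1, CDT1, CDC45 and POLE2 most, with at most 70 counts in any library.

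Expected counts in place of TPM, added after seeing the data, gave the GINS range a log2 ratio of 0.42 of Dox over control. With the replicate number as a block, 22 members were lower and 3 higher, RRM1 being the one lost, with 2972 genes higher and 2511 lower. The titles give no pairing, and the deviations of replicate 1 from the group means correlated by 0.0383 between groups.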
